A study of Mus musculus with 22 samples.

Results

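The genes described here encode the voltage-gated calcium and sodium channels and all families of potassium channels, with their accessory subunits. They were chosen by symbol alone: a gene entered when the array annotation gave its probe set a single symbol that begins Cacna1, Cacna2, Cacnb or Cacng, that names a sodium channel pore or beta subunit (Scn with a final a or b), or that begins Kcn followed by a family letter and a number. The rule used no measured value, but it was set with earlier results of these data known. The probe set with the highest mean over all arrays stood for each gene. The rule found 126 of the 19938 genes, 123 of them protein-coding and 3 of them transcripts on the strand opposite a channel gene. By class they were 10 calcium channel pores, 4 alpha2delta, 3 beta and 7 gamma subunits of calcium channels, 8 sodium channel pores and 3 sodium channel beta subunits. The potassium channels were 35 voltage-gated pores, 12 accessory subunits, 15 inward rectifiers, 14 2-pore channels and 12 channels or subunits opened by calcium or sodium.

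RNA came from 22 samples of mice labelled with the RIP1-TAG2 genotype, in which the rat insulin promoter drives a viral oncoprotein in pancreatic beta cells, so that islets pass through hyperplasia and onset of new vessel growth to tumours. Each sample was measured on 1 Affymetrix Mouse Gene 1.0 ST array. The tissue labels were normal islet (3 samples), hyperplastic islet (3), angiogenic islet (3), islet tumour (5), metastasis-like primary (5) and liver metastasis (3). All of them carry the transgene label, the normal islets included, and neither the ages, the number of mice pooled for a sample nor the way a primary tumour was classed as metastasis-like is given in the sources used here. Samples are numbered within a group in the order of deposit, which has no other meaning. Tumours, metastasis-like primaries and metastases have titles that begin I, II or III, and all 3 metastases begin I. The islet samples carry title codes as well, each shared by 1 normal, 1 hyperplastic and 1 angiogenic sample, and what the codes mark is not given in the labels. Nothing in the labels says that samples of a group came from separate animals, so the spread between them may be partly technical.

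Neurons use sodium channels for the upstroke of an action potential, calcium channels to couple it to secretion and potassium channels to end it. Pancreatic beta cells are electrically excitable as well. In a beta cell, glucose metabolism closes the potassium channel built from Kcnj11 and the sulfonylurea receptor Abcc8, the membrane depolarises, calcium enters through voltage-gated channels and insulin granules fuse. Voltage-gated, calcium-activated and 2-pore potassium channels then restore the resting potential, and accessory subunits set how many channels reach the membrane and how fast they open and close.

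Some facts of the whole series bear on these genes. The array medians lay between 7.08 and 7.22 on the log2 scale, and the highest correlation between any 2 arrays was 0.9951. The 9 measured beta cell markers averaged 11.58 to 11.63 in normal islets, 8.44 to 9.06 in metastasis-like primaries, 9.01 to 9.61 in liver metastases and 10.52 to 10.99 in islet tumours, and 9 of 9 were lower in metastasis-like primaries than in islet tumours. The 6 measured alpha and delta cell markers averaged 10.60 to 11.65 in the 9 islet samples and 7.84 to 9.04 in the 13 tumour and metastasis samples. Of the measured hepatocyte markers, 7 of 7 were higher in liver metastases (list mean 10.62 to 11.13) than in metastasis-like primaries (6.80 to 7.27), and 5 of 6 acinar markers were lower there. Fibroblast markers averaged 8.47 to 9.19 in islet tumours, where 5 of 5 were lower than in angiogenic islets (10.55 to 10.75), as were 6 of 7 hepatocyte markers (6.96 to 9.39 in angiogenic islets). The 6 measured neuron and Schwann cell markers averaged 7.24 to 8.09 in islet tumours and 7.53 to 8.10 in metastasis-like primaries, with 2 higher and 1 lower. Xist, transcribed from the inactive X chromosome of female cells, lay between 10.67 and 11.41 in the 9 islet samples and between 5.33 and 6.46 in the other 13, so stage and Xist level cannot be told apart where islets are compared with tumours. In bulk RNA of this kind, fewer cells of a type and less RNA per cell cannot be told apart either.

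Of the 126 channel genes, 80 passed the test (limma, adjusted p below 0.05 over all 19938 genes) in at least 1 of 6 comparisons and 46 passed in none. Of the 80, 37 passed in 1 comparison, 32 in 2, 9 in 3 and 2 in 4. From normal to hyperplastic islets 9 genes were called, which is 7.14% of the channel genes against 8.64% of all genes tested. Of these 3 were higher and 6 lower, where 4.46% and 4.17% of all genes were. From hyperplastic to angiogenic islets 2 were called, where 2.53% of all genes were; 1 was higher (2.29% of all genes) and 1 lower (0.246%). Islet tumours differed from angiogenic islets in 14 genes, 11.1% against 9.54% of all genes, with 7 higher (3.09% of all genes) and 7 lower (6.45%). With the title code as a block, 15 genes were called there, 12 higher and 3 lower, and 6 of them were among the 14. That fit links islet tumours and angiogenic islets through the arrays of code I alone. It takes I-93 in the islet titles and I in the tumour titles as the same code, which the labels do not say. Without angiogenic islet 1 the calls were 5 higher and 0 lower. The largest number of called channel genes was that between metastasis-like primaries and islet tumours, where 54 passed, 42.9% against 26.5% of all genes. The direction was uneven: 35 were higher in metastasis-like primaries, 27.8% against 12.3% of all genes, and 19 were lower, 15.1% against 14.2%. In the same comparison 5 of 6 endothelial markers (median difference -0.90) and 3 of 6 pericyte and smooth muscle markers (median -0.44) were lower, beside the 9 beta cell markers, and their part in the result was not tested.

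From metastasis-like primaries to liver metastases 23 channel genes were called, 18.3% against 15.7% of all genes. Of these, 21 were lower in the metastases, 16.7% against 7.87% of all genes, and 2 were higher, 1.59% against 7.8%. All 3 metastases have titles in I, and of the metastasis-like primaries only number 1 has. Metastasis and title prefix are therefore hard to tell apart in this comparison. Between these groups 7 of 7 hepatocyte markers were higher in the metastases (median difference 3.66), and 5 of 6 acinar and 2 of 5 macrophage markers were lower. Their part in the channel gene calls, the falls of single genes described below included, was not tested. Islet tumours and normal islets differed in 34 channel genes, 27.0% against 29.0% of all genes, 16 of them higher (13.0% of all genes) and 18 lower (16.1%) in the tumours. That split of 47.1% higher became 33.3% after quantile normalization and 29.7% after centring each array on its median. With the title code as a block 17 of the 34 remained, 9 higher and 8 lower. Here too islet tumours and normal islets are linked only by reading I-93 and I as the same code. The comparisons share arrays, since islet tumours enter 3 of them, so a gene's values in each are given side by side and are not independent of each other. Without metastasis 2 the count between metastases and metastasis-like primaries was 14. The count without angiogenic islet 1 was 0 for angiogenic against hyperplastic islets.

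**Figure D1:**
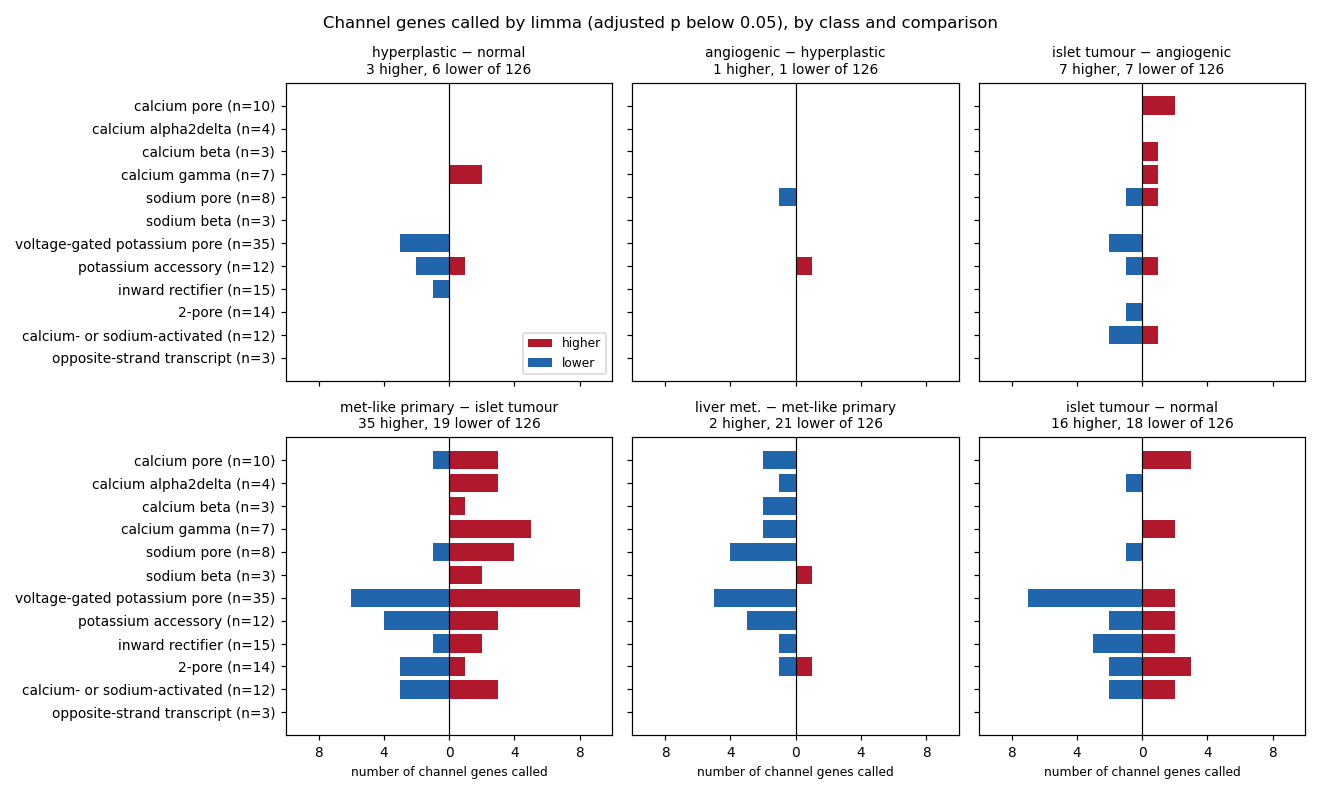
Number of channel genes called by limma at an adjusted p below 0.05, by channel class (rows, with the number of genes in each) and comparison (panels). Red bars to the right count genes higher in the first group of the panel title and blue bars to the left genes lower; the panel for metastasis-like primaries against islet tumours holds the most calls, 35 higher and 19 lower.

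Of the channel classes, sodium channel pores had the largest median difference between metastasis-like primaries and islet tumours. Metastasis-like primaries had higher levels of 4 of the 8 pore genes (Scn2a, Scn3a, Scn8a and Scn11a) and of 2 of the 3 measured beta subunits (Scn2b and Scn3b), and a lower level of 1 pore gene, Scn9a. Of all genes, 12.3% were higher and 14.2% lower in this comparison. The median difference over the 8 pores was 0.79 on the log2 scale, and over all genes it was -0.02. In liver metastases 4 of 8 pores (Scn2a, Scn7a, Scn9a and Scn11a) were lower than in metastasis-like primaries and none passed the test as higher, where 7.87% and 7.8% of all genes were. The median difference of the pores was -0.88, against -0.01 for all genes.

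Scn3a encodes Nav1.3, a neuronal pore abundant in the embryonic brain and also present in islet cells. Its log2 intensities were 9.34, 9.59, 9.34, 9.38 and 9.25 in the 5 metastasis-like primaries and 9.45, 9.69 and 9.36 in the metastases. In the islet tumours they were 5.57, 7.54, 7.22, 6.11 and 6.64, so every metastasis-like primary lay above every islet tumour by a wide margin. The difference was 2.77 ± 0.24 (log2 ± SE, limma adjusted p = 2.01e-08), a 6.81-fold higher level. Between normal islets (7.90, 7.58 and 8.18) and islet tumours the level fell by 1.27 ± 0.28 (adjusted p = 0.00144). Hyperplastic islets (7.51, 7.23 and 7.51) and angiogenic islets (6.85, 7.03 and 7.19) lay between these, and neither step among the islets passed the test (adjusted p = 0.444 and 0.634). Metastases and metastasis-like primaries overlapped, with a difference of 0.12 ± 0.28 (adjusted p = 0.846).

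Scn2a encodes Nav1.2, the neighbour of Scn3a on chromosome 2. It measured 9.19, 9.65, 9.45, 8.79 and 9.14 in metastasis-like primaries, against 7.72, 8.21, 7.93, 7.42 and 7.74 in islet tumours. These groups did not overlap, and the difference was 1.44 ± 0.16 (limma adjusted p = 5.73e-07). The array holds 14 probe sets for this gene, and 14 of 14 were higher in metastasis-like primaries, by 1.44 to 2.32. Between metastases and metastasis-like primaries 14 of 14 were lower, by differences from -1.03 to -0.59. Islet samples lay between 7.41 and 7.87, near the islet tumours.

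Scn11a, the Nav1.9 pore best known from pain-sensing neurons, had its highest levels in metastasis-like primaries. They measured 6.86, 7.50, 7.0, 7.14 and 6.50, while the islet tumours lay between 5.70 and 5.95 and the metastases measured 5.97, 6.01 and 5.75. The difference from islet tumours was 1.20, and metastases differed from metastasis-like primaries by -1.09 ± 0.15 (limma adjusted p = 2.11e-05). Scn8a, the Nav1.6 pore of mature neurons, was higher in islet tumours than in angiogenic islets and higher again in metastasis-like primaries, by smaller amounts. It was 7.61, 7.57 and 7.88 in angiogenic islets and 8.03 to 8.28 in islet tumours (0.42 ± 0.08, limma adjusted p = 0.00177), then 8.63 to 8.79 in metastasis-like primaries, a further 0.62. Islet tumours were not above normal islets, and Scn8a was not called between these groups. Relative to the mean of the 6 group means, normal islets lay at -0.083, hyperplastic islets at -0.276, angiogenic islets at -0.513 and islet tumours at -0.092. Scn3b, a beta subunit that steers pores to the membrane, measured 8.32, 8.49, 8.41, 7.97 and 8.44 in metastasis-like primaries and 6.49 to 7.34 in islet tumours, a difference of 1.29 ± 0.13 (adjusted p = 9.94e-08).

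Scn9a, the Nav1.7 pore, abundant in mouse beta cells, ran the other way. Islet samples lay between 8.67 and 9.15 and islet tumours between 8.47 and 9.27, without a called difference. Metastasis-like primaries were uneven at 7.14, 8.81, 8.84, 7.92 and 7.36, and the metastases were lowest at 5.93, 5.44 and 6.63. The metastases lay below every other sample, and their difference from metastasis-like primaries was -2.02 ± 0.32 (limma adjusted p = 0.000135), which is 4.04-fold. From metastasis-like primary 1 alone, which shares their title prefix, the metastases differed by -1.14. The smaller difference between metastasis-like primaries and islet tumours, -0.91 ± 0.28 (adjusted p = 0.0166), lost its call without metastasis-like primary 1 (-0.70, adjusted p = 0.0596) or 5 (-0.75, adjusted p = 0.0571) and when fitted on the compared arrays alone (adjusted p = 0.0585).

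Scn7a, a sodium channel relative that does not open with voltage and is used by glia and other supporting cells, was high in all 3 angiogenic islets at 8.15, 7.84 and 7.86. Hyperplastic islets measured 6.37, 5.98 and 6.75 and islet tumours 6.94, 6.01, 6.32, 6.68 and 6.10, so no angiogenic islet overlapped with either group. The difference from hyperplastic islets, 1.58 ± 0.49, did not pass (limma adjusted p = 0.104). The fall to islet tumours of 1.54 ± 0.43 (limma adjusted p = 0.0281) lost its call without angiogenic islet 1 (adjusted p = 0.141), 2 (0.0738) or 3 (0.0566), and without islet tumour 2 (0.0584) or 5 (0.0518). Fibroblast markers moved the same way between these groups, and their part in the result was not tested. In metastases Scn7a measured 5.28, 5.25 and 5.42, against 6.95, 8.24, 7.81, 5.46 and 6.48 in metastasis-like primaries (-1.67 ± 0.43, adjusted p = 0.0114; 0.0563 on the compared arrays alone).

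Scn2b, a beta subunit, was 1 of only 2 channel genes higher in metastases than in metastasis-like primaries. It measured 7.65, 7.03 and 7.34 in metastases and 6.80, 6.45, 6.85, 6.21 and 6.37 in metastasis-like primaries, with no overlap (0.81 ± 0.16, limma adjusted p = 0.00126). Hepatocyte markers were higher in the same metastases, and their part in this result was not tested. Scn10a, the Nav1.8 pore of sensory neurons, was the 1 channel gene lower in angiogenic than in hyperplastic islets (5.38 ± 0.10 against 5.83 ± 0.07, SD, n = 3 each; difference -0.46 ± 0.10, adjusted p = 0.00994). Its call was lost without hyperplastic islet 3 (limma adjusted p = 0.0596) or angiogenic islet 1 (0.0515). Both group means lay below 6.20, the 25th percentile of the gene means over all arrays, so this is a difference between dim signals.

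**Figure D2:**
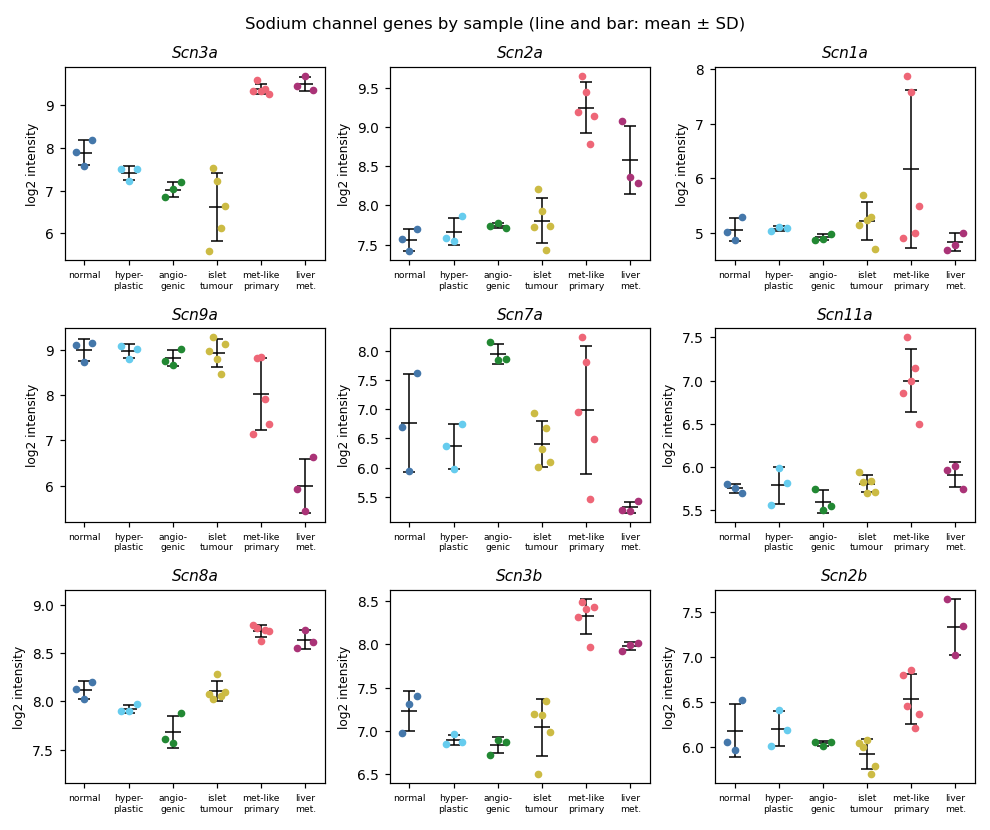
Log2 intensity of sodium channel genes in every sample, by tissue label; each point is 1 sample and the line with its bar is the group mean ± SD. Scn3a lies between 9.25 and 9.69 in all metastasis-like primaries and metastases and at or below 7.54 in all islet tumours, whereas Scn9a is lowest in the 3 metastases.

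Among the calcium channel pores, metastasis-like primaries had 3 of 10 higher than islet tumours (Cacna1b, Cacna1g and Cacna1i) and 1 lower (Cacna1a), where 12.3% and 14.2% of all genes were. Islet tumours had 3 of 10 higher than normal islets (Cacna1b, Cacna1e and Cacna1h), where 13.0% of all genes were, and none passed the test as lower (16.1% of all genes). The accessory subunits leaned further to one side, with 3 of 4 alpha2delta, 1 of 3 beta and 5 of 7 gamma subunits higher in metastasis-like primaries than in islet tumours and none lower. The median difference of the gamma subunits was 0.77.

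Cacna1e encodes Cav2.3, the R-type channel that supports late insulin release. It measured 6.45, 6.24 and 6.48 in normal islets, 6.77, 6.66 and 6.75 in hyperplastic islets and 6.81, 7.02 and 6.90 in angiogenic islets. Islet tumours measured 7.51, 7.86, 8.63, 8.11 and 8.15, above every islet sample. The level was 1.66 ± 0.23 higher than in normal islets (limma adjusted p = 1.02e-05) and 1.14 ± 0.23 higher than in angiogenic islets (adjusted p = 0.00342), comparisons that share the same tumours. Metastasis-like primaries spread from 7.26 to 8.57, within the range of the tumours but for the lowest. The metastases fell back to 6.91, 6.57 and 7.11, below every metastasis-like primary (-1.07 ± 0.23, adjusted p = 0.00296).

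The start of Cacna1e is shown because this gene had the largest rise of any calcium channel between normal islets and tumours; the stretch is the 120 bases before the annotated start (RefSeq, GRCm38.p6, minus strand, chr1:154725921-154726040), with every GC box in capitals, of which it holds none.
Cacna1e: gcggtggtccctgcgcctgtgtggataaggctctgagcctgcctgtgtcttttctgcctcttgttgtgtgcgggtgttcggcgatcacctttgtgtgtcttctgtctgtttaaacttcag

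Cacna1a, the P/Q-type pore Cav2.1 that drives transmitter and insulin release, was the pore that was lower in metastasis-like primaries. It measured 8.03, 8.48, 8.18, 8.41 and 7.76 there, against 9.41, 8.80, 8.98, 9.04 and 9.29 in islet tumours. The groups did not overlap, and the difference was -0.93 ± 0.13 (limma adjusted p = 6.71e-06). Metastases, at 8.27, 8.07 and 8.45, stayed within the range of the metastasis-like primaries, while the normal islets measured 9.48, 9.46 and 9.46. Cacna1b, the N-type pore Cav2.2 of nerve terminals, moved up where Cacna1a moved down. It was 8.72 to 9.06 in metastasis-like primaries and 8.02 to 8.74 in islet tumours, with a difference of 0.44 and a slight overlap, and it measured 8.36, 8.38 and 8.46 in metastases. Between angiogenic islets (7.80 to 8.0) and islet tumours it rose by 0.58 ± 0.12 (adjusted p = 0.00418; 0.0641 on the compared arrays alone).

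The L-type pores Cacna1c and Cacna1d, which supply most of the calcium that triggers insulin release in mouse beta cells, passed in none of the 6 comparisons. Cacna1d averaged 9.73 ± 0.22 in normal islets (SD, n = 3), 9.39 ± 0.29 in islet tumours (n = 5), 9.72 ± 0.13 in metastasis-like primaries (n = 5) and 9.53 ± 0.11 in metastases (n = 3). Its difference between metastasis-like primaries and islet tumours, 0.33 ± 0.12, had a limma adjusted p of 0.0537 and was called without islet tumour 1 (adjusted p = 0.0336) or 5 (0.0153), or without metastasis-like primary 5 (0.0346). Cacna1c ranged only from a mean of 9.02 in normal islets to 9.38 in metastasis-like primaries. The beta subunit Cacnb2, a partner of these pores, was likewise called nowhere, with group means from 6.74 to 7.11.

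The gamma subunits include the TARPs, which carry AMPA-type glutamate receptors to synapses besides acting on calcium channels. Cacng8 measured 8.05, 8.06, 7.97, 8.28 and 7.89 in metastasis-like primaries and 6.64, 6.76, 6.86, 6.63 and 6.64 in islet tumours. Among channel genes that rose by at least 1 in this comparison it had the smallest standard error, with a difference of 1.34 ± 0.08 (limma adjusted p = 2.71e-11). Metastases measured 7.74, 7.66 and 7.78, between these groups. Cacng7, its neighbour on chromosome 7, was instead higher from the earliest stage on. It measured 7.17, 6.73 and 6.91 in normal islets, 7.53, 7.69 and 7.59 in hyperplastic islets and 7.76, 7.82 and 7.87 in angiogenic islets, then 8.03 to 8.59 in islet tumours and 8.69 to 9.67 in metastasis-like primaries. Normal islets and islet tumours differed by 1.35 ± 0.16 (adjusted p = 1.64e-06). The first step, 0.66 ± 0.18 from normal to hyperplastic islets (adjusted p = 0.0247), lost its call without normal islet 2 (adjusted p = 0.129) or 3 (0.0741) or without any 1 of hyperplastic islets 1 (0.0524), 2 (0.0869) and 3 (0.0691).

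Cacng5 was highest in metastasis-like primaries, at 7.94, 8.57, 8.26, 7.92 and 7.62. Islet tumours lay between 6.53 and 7.16 and metastases at 6.80, 6.66 and 6.94, so neither group overlapped with them. The difference from islet tumours was 1.16, and that of metastases from metastasis-like primaries was -1.26 ± 0.17 (limma adjusted p = 1.94e-05). Cacng4, which neighbours Cacng5 on chromosome 11, did not share this pattern: it was 8.62 to 9.12 in islet tumours and 8.46 to 8.83 in metastasis-like primaries (adjusted p = 0.671). Its rise came earlier, with 8.06, 8.03 and 8.11 in normal islets and 0.73 ± 0.11 more in islet tumours (adjusted p = 3.45e-05).

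Cacna2d3, an alpha2delta subunit that helps bring pores to nerve terminals, fell and rose again. It was 6.02, 6.38 and 6.51 in normal islets and 5.58 to 5.98 in islet tumours, a difference of -0.56 ± 0.16 (limma adjusted p = 0.00862) that lost its call without normal islet 3 (-0.46, adjusted p = 0.0630). Metastasis-like primaries measured 6.25, 7.03, 6.97, 6.62 and 6.22, all above the islet tumours by values that gave a difference of 0.87 ± 0.13 (adjusted p = 3.39e-05). Metastases were back at 5.60, 5.85 and 5.62 (-0.93 ± 0.16, adjusted p = 0.000256). Cacnb4, a beta subunit of neuronal calcium channels, measured 7.07, 7.43, 6.46, 6.59 and 6.78 in metastasis-like primaries and 5.86 to 6.31 in islet tumours (0.86 ± 0.14, adjusted p = 8.9e-05).

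**Figure D3:**
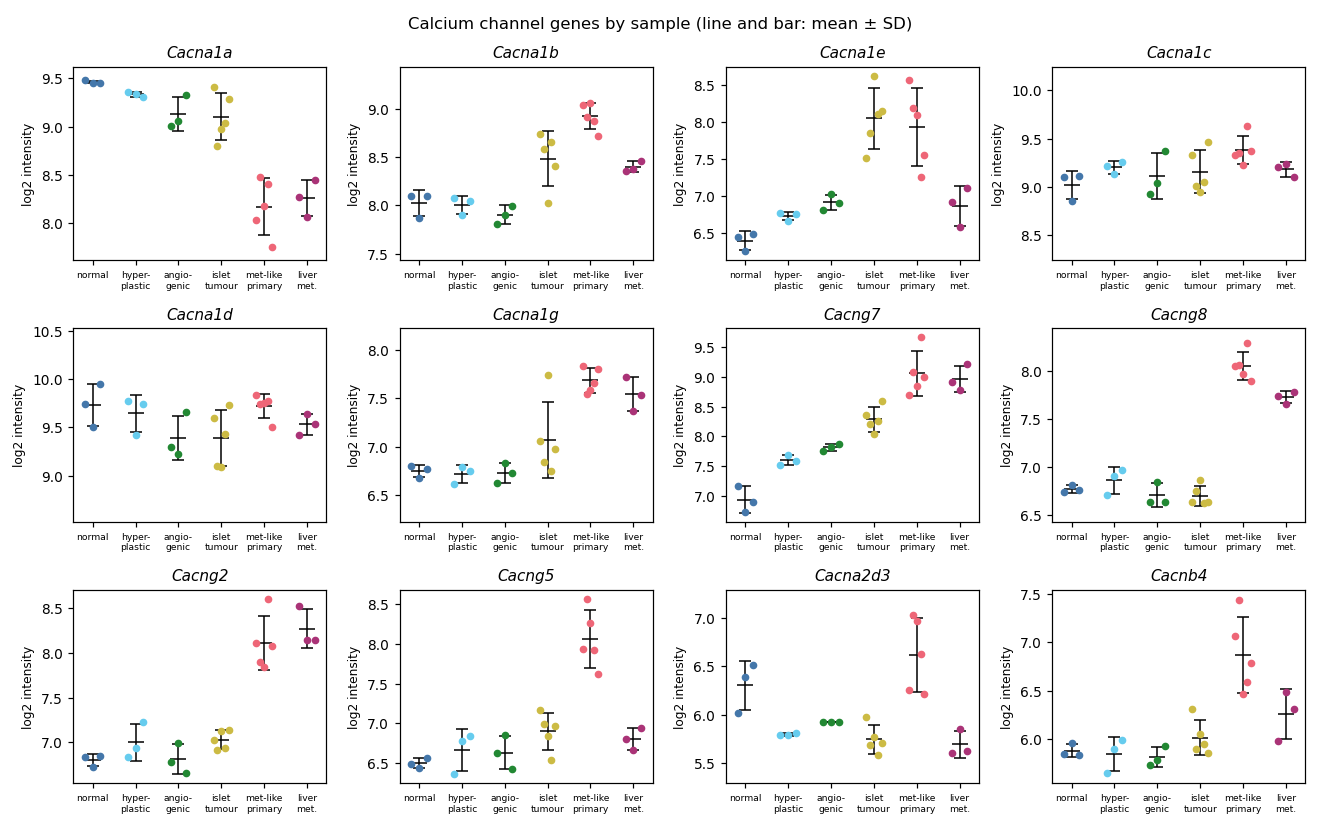
Log2 intensity of calcium channel genes in every sample, by tissue label; points are samples and lines with bars are group means ± SD. Cacng8 and Cacng2 stand apart in metastasis-like primaries and metastases, Cacng5 and Cacna2d3 in metastasis-like primaries against metastases, and the L-type pores Cacna1c and Cacna1d show overlapping groups.

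Voltage-gated potassium pores divided between the directions. Of 35, metastasis-like primaries had 8 higher and 6 lower than islet tumours (12.3% and 14.2% of all genes), with a median difference of 0.05, near that of all genes at -0.02. The opposed genes included relatives within the ether-a-go-go family (Kcnh), whose channels open slowly and shape repetitive firing: Kcnh7 was higher, and Kcnh2, Kcnh5 and Kcnh8 were lower.

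Kcnh7 encodes Kv11.3, a relative of the heart channel hERG found in the nervous system. It measured 8.14, 8.66, 8.93, 8.36 and 8.58 in metastasis-like primaries and 8.81, 8.48 and 9.06 in metastases. All 14 other samples lay between 5.55 and 6.19. The difference between metastasis-like primaries and islet tumours was 2.54 ± 0.14 (limma adjusted p = 2.46e-11), which is 5.84-fold. Kcnh8, the Kv12.1 pore, measured 6.14, 6.18, 6.12, 6.30 and 6.14 in metastasis-like primaries and 7.41, 8.01, 8.36, 8.18 and 7.77 in islet tumours. It fell by 1.77 ± 0.13 between them (adjusted p = 1.26e-09), having been 7.33 to 7.74 in the islet samples, and stayed at 6.35, 6.35 and 6.67 in metastases. Both of its probe sets were lower, by differences of -1.77 and -1.10.

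Kcnh5, the Kv10.2 pore, was likewise low in metastasis-like primaries, at 5.67, 6.54, 7.34, 6.51 and 6.28, and in metastases, at 6.02, 5.93 and 6.22. Islet tumours measured 8.13, 8.14, 8.50, 8.16 and 7.90 and islet samples 8.31 to 9.05, all above the metastasis-like primaries and metastases. The difference between the primary tumour types was -1.70 ± 0.20 (limma adjusted p = 1.11e-06). Kcnh2 itself, the hERG channel that repolarises beta cells as well as heart muscle, differed by less, with a mean of 8.64 in metastasis-like primaries and 8.97 in islet tumours (-0.34 ± 0.10, adjusted p = 0.0192). That call was lost without islet tumour 2 (adjusted p = 0.0641), 3 (0.0595) or 5 (0.0565) or metastasis-like primary 5 (0.0667), and the tumours with titles in I differed by 0.06 in the other direction.

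The starts of 3 Kcnh genes with opposed changes are shown to compare their promoters, and that of Kcnh2, also lower, is not shown. Each line is the 120 bases before the start annotated by RefSeq on GRCm38.p6, read on the gene's strand: chr2:63184288-63184407 on the minus strand for Kcnh7, chr12:75177333-75177452 on the minus strand for Kcnh5 and chr17:52602589-52602708 on the plus strand for Kcnh8. Capitals mark GC boxes (GGGCGG on either strand).
Kcnh7: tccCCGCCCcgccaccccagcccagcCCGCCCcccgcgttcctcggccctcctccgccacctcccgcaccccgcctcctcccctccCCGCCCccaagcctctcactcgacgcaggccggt
Kcnh5: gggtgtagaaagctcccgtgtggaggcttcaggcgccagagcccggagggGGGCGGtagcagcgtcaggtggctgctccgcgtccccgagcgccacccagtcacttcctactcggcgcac
Kcnh8: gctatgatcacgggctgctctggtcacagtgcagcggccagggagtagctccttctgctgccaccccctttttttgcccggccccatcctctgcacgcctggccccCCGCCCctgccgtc
The stretch of Kcnh7 holds 3 GC boxes and 13 CpG dinucleotides, that of Kcnh5 holds 1 and 11, and that of Kcnh8 holds 1 and 6. Their content of G and C was 80%, 70% and 67.5%.

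Kcng3 and Kcnf1 encode silent subunits that form channels only together with other voltage-gated pores. Kcng3 measured 8.79 to 8.89 in normal islets and 7.45 to 8.61 in islet tumours. In metastasis-like primaries it was 6.46, 6.61, 7.11, 6.50 and 6.32, below every islet tumour (-1.48 ± 0.20, limma adjusted p = 5.77e-06). Kcnf1 was lost at the first step instead. Normal islets measured 7.30, 7.83 and 7.71 and hyperplastic islets 6.57, 6.35 and 6.53, a fall of 1.13 ± 0.14 (adjusted p = 1.39e-05) and the largest of any channel gene between these groups. All other groups had means between 6.11 and 6.18.

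Among the remaining pores, Kcna4, the A-type pore Kv1.4, and Kcnq3, a subunit of the neuronal M-current, were high in metastasis-like primaries and not in metastases. Kcnq3 measured 7.58, 8.45, 8.54, 7.68 and 7.80 in metastasis-like primaries, 6.71 to 7.30 in islet tumours and 6.58, 6.62 and 6.32 in metastases. Its difference from islet tumours was 1.04, and from metastasis-like primaries to metastases it was -1.50 ± 0.18 (limma adjusted p = 3.41e-06). Kcna4 measured 7.68, 8.14, 7.95, 7.13 and 6.27 in metastasis-like primaries, and islet tumour 2, at 7.51, reached into their range. The difference from the islet tumours was 1.34 ± 0.34 (adjusted p = 0.00481). In metastases it was 5.28, 5.95 and 6.18 (-1.63 ± 0.39, adjusted p = 0.00659), a call lost without metastasis 1 (-1.37, adjusted p = 0.0545). Kcna2, a Kv1 pore of axons, fell from 7.73, 7.86 and 8.0 in normal islets to 7.15, 7.15 and 7.39 in hyperplastic islets (-0.64 ± 0.11, adjusted p = 0.000519).

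Accessory subunits of potassium channels had 3 of 12 higher and 4 of 12 lower in metastasis-like primaries than in islet tumours, against 12.3% and 14.2% of all genes. The calcium-binding KChIP proteins attach to Kv4 pores and change how fast they inactivate. Kcnip3, also known as the repressor DREAM, measured 7.21, 7.36 and 7.03 in normal islets, 7.70, 7.92 and 7.80 in hyperplastic islets and 7.60, 7.89 and 7.72 in angiogenic islets. Tumours of the islet class ranged from 8.31 to 8.75, and metastasis-like primaries measured 9.80, 9.55, 9.71, 9.10 and 9.33. No islet tumour overlapped with either neighbour in this order, and the difference from normal islets was 1.33 ± 0.13 (limma adjusted p = 1.04e-07). The step to metastasis-like primaries was a further 0.97 ± 0.11 (adjusted p = 1.05e-06), and metastases, at 9.34, 9.20 and 9.37, lay within the range of metastasis-like primaries. The first step, 0.61 ± 0.15 to hyperplastic islets (adjusted p = 0.01), lost its call without normal islet 3 (adjusted p = 0.0628) or hyperplastic islet 2 (0.0527).

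Kcnip1 and Kcnip2, of the same family, were lower in islet tumours than in normal islets, where Kcnip3 was higher. Of these, Kcnip1 alone was also called lower in metastasis-like primaries than in islet tumours. Kcnip1 measured 9.27, 9.53 and 9.32 in normal islets, 7.43 to 8.65 in islet tumours (-1.13 ± 0.25, limma adjusted p = 0.0014) and 6.41 to 7.67 in metastasis-like primaries, a further -1.01. Kcnip2 fell from 7.15, 7.46 and 7.11 in normal islets to 6.56, 6.50 and 6.33 in hyperplastic islets, by 0.78 ± 0.16 (adjusted p = 0.0031). Kcnip4 was lower in metastases, at 6.30, 6.14 and 6.83, than in metastasis-like primaries, at 7.06 to 8.10 (-1.11 ± 0.28, adjusted p = 0.00818), and lost that call without metastasis 2 (-0.97, adjusted p = 0.0592). Kcne3, a single-pass subunit that holds Kcnq1 channels open in epithelia, was the 1 channel gene higher in angiogenic than in hyperplastic islets. It measured 7.74, 7.13 and 6.82 against 6.39, 6.70 and 6.21 (0.80 ± 0.20, adjusted p = 0.0322), and its call was lost without hyperplastic islet 1 (adjusted p = 0.0927) or 3 (0.169) or angiogenic islet 1 (0.244) or 2 (0.0751). In the same comparison 5 of 5 fibroblast, 5 of 5 macrophage, 4 of 6 endothelial and 3 of 6 pericyte and smooth muscle markers were higher, and their part in the result was not tested.

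Of the 15 inward rectifiers, which set the resting potential, metastasis-like primaries had 2 higher and 1 lower than islet tumours, 20.0% against 26.5% of all genes. Kcnj11 encodes Kir6.2, the pore of the beta cell channel closed by glucose metabolism. It measured 9.67, 9.50 and 9.77 in normal islets, 9.41, 8.60, 9.27, 9.51 and 9.03 in islet tumours, between 9.15 and 9.54 in metastasis-like primaries and 8.95 to 9.08 in metastases. Normal islets and islet tumours differed by -0.48 ± 0.15 with a slight overlap (limma adjusted p = 0.0167), a call lost without normal islet 1 (adjusted p = 0.0517) or 3 (0.0797). No other comparison of Kcnj11 passed. Kcnj5, a G protein-gated pore (GIRK4) opened by inhibitory receptors, was high in metastasis-like primaries at 7.34, 7.64, 7.71, 7.37 and 6.54. Islet tumours measured 5.77 to 6.19 and metastases 6.10, 6.16 and 6.01, and neither overlapped with them. The differences were 1.26 ± 0.15 (adjusted p = 2.01e-06) and -1.23 ± 0.18 (adjusted p = 4.58e-05). Its usual partner in islets, Kcnj6 (GIRK2), had means of 7.67 in islet tumours and 7.74 in metastasis-like primaries (adjusted p = 0.725). Kcnj12, a strong inward rectifier, fell from 7.15 ± 0.13 in normal to 6.70 ± 0.08 in hyperplastic islets (SD, n = 3 each; -0.45 ± 0.10, adjusted p = 0.0043).

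Among the 14 2-pore channels, which carry the background potassium current, Kcnk16 and Kcnk5 are neighbours on chromosome 14. Kcnk16 encodes TALK-1, the most abundant 2-pore channel of beta cells. It measured 11.05, 10.98 and 11.08 in normal islets, 10.55, 10.53 and 10.23 in hyperplastic islets and 10.17, 10.08 and 10.14 in angiogenic islets. Islet tumours measured 8.23, 9.16, 9.19, 8.45 and 10.07, below all normal islets and widely spread. The difference between them was -2.01 ± 0.35 (limma adjusted p = 0.000135), 4.04-fold lower in the tumours. Metastasis-like primaries were as uneven, at 9.92, 9.99, 10.01, 8.21 and 9.27, and did not differ by the test from islet tumours (0.46 ± 0.30, adjusted p = 0.316). Without metastasis-like primary 4 that difference was called (0.77, adjusted p = 0.0259). Metastases measured 8.71, 8.46 and 8.31.

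Kcnk5 (TASK-2), a channel opened by alkaline conditions, measured 7.24, 6.83, 7.18, 7.73 and 7.51 in metastasis-like primaries and 7.35, 7.72 and 7.51 in metastases. Islet tumours lay between 5.98 and 6.16 and islet samples between 6.12 and 6.62, all below the metastasis-like primaries and metastases. The difference between the primary tumour types was 1.26 ± 0.13 (limma adjusted p = 1.57e-07). Between normal islets and islet tumours Kcnk5 differed by -0.31 and did not pass (adjusted p = 0.13). The promoters are shown because these adjoining genes were called in different comparisons, although whether their differences differ was not tested. They are given as the 120 bases before the RefSeq starts on GRCm38.p6, both on the minus strand (chr14:20181783-20181902 for Kcnk5 and chr14:20269270-20269389 for Kcnk16), with GC boxes in capitals.
Kcnk5: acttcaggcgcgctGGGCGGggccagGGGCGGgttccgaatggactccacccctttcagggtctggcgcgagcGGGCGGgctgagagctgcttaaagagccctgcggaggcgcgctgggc
Kcnk16: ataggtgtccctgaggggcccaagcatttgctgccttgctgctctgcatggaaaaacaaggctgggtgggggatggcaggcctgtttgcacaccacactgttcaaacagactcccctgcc
The stretch before Kcnk5 holds 3 GC boxes and 12 CpG dinucleotides, and the one before Kcnk16 holds 0 of each.

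Kcnk9 (TASK-3), an acid-sensitive background channel of neurons and adrenal cells, separated single islet tumours. It measured 9.44 in islet tumour 1 and 10.19 in islet tumour 4, and 7.13, 7.34 and 6.72 in the other 3. Normal islets measured 6.71, 6.22 and 6.23, while hyperplastic and angiogenic islets lay between 7.60 and 8.16. The islet tumours were 1.78 ± 0.52 higher than normal islets (limma adjusted p = 0.0128), a call lost without normal islet 2 (adjusted p = 0.0538) and on the compared arrays alone (0.0952). Metastasis-like primaries, at 6.52 to 7.30, differed from the islet tumours by -1.39 ± 0.45 (adjusted p = 0.0256), and this call was lost without islet tumour 1 (-1.07, adjusted p = 0.0854) or 4 (-0.88, adjusted p = 0.0743) and without metastasis-like primary 5 (-1.33, adjusted p = 0.0545). Kcnk1 (TWIK-1) was the other channel gene higher in metastases, at 8.72, 8.39 and 8.93 against 7.69 to 8.30 in metastasis-like primaries (0.68 ± 0.19, adjusted p = 0.0182). It lost that call without metastasis 1 (adjusted p = 0.0667) or 3 (0.12).

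Of the 12 calcium- or sodium-activated channels and subunits, metastasis-like primaries had 3 higher and 3 lower than islet tumours, against 12.3% and 14.2% of all genes. Kcnn3 encodes SK3, a small-conductance channel that follows cytosolic calcium between spikes. It measured 9.74, 9.86 and 9.94 in normal islets, 9.22, 8.82 and 9.24 in hyperplastic islets and 8.76, 8.20 and 8.90 in angiogenic islets. Islet tumours measured 7.39, 8.42, 8.63, 6.90 and 7.87, and metastasis-like primaries and metastases all lay between 6.61 and 6.87. Islet tumours differed from normal islets by -2.01 ± 0.26 (limma adjusted p = 3.99e-06), and the next step to metastasis-like primaries was -1.07 ± 0.23 (adjusted p = 0.00096). Single steps among the islets did not pass the test (adjusted p = 0.126 and 0.515). The 120 bases before its RefSeq start are shown because it fell most among these channels (GRCm38.p6, plus strand, chr3:89520044-89520163); capitals would mark a GC box, and the stretch holds 0.
Kcnn3: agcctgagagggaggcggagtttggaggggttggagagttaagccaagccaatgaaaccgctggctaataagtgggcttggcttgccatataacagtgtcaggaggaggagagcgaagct

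Kcnt1 (Slack), opened by intracellular sodium, rose as Kcnn3 fell. It measured 6.69 to 6.76 in normal islets and 6.74, 6.96 and 6.91 in angiogenic islets. Islet tumours lay above both, at 8.42, 7.86, 7.59, 8.08 and 7.74. The rise over angiogenic islets was 1.07 ± 0.12 (limma adjusted p = 1.41e-05) and over normal islets 1.20 ± 0.12 (adjusted p = 1.89e-07), comparisons that share the tumours. Metastasis-like primaries lay within 8.50 to 8.65, a further 0.63. Kcnmb2, a subunit that inactivates the large-conductance channel, measured 9.82 to 10.24 in islet tumours and 9.11 to 9.53 in metastasis-like primaries (-0.72 ± 0.11, adjusted p = 2.2e-05). The pore it joins, Kcnma1 (BK), gave no single answer. The probe set with the higher mean was lower in islet tumours than in normal islets (-1.06 ± 0.13, adjusted p = 2.64e-06) and higher in metastasis-like primaries (0.61 ± 0.12, adjusted p = 0.00032). The second probe set of the gene differed by 1.12 and -1.40 in the same comparisons, and the mean of both by 0.03 and -0.39, so no direction is given for Kcnma1.

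**Figure D4:**
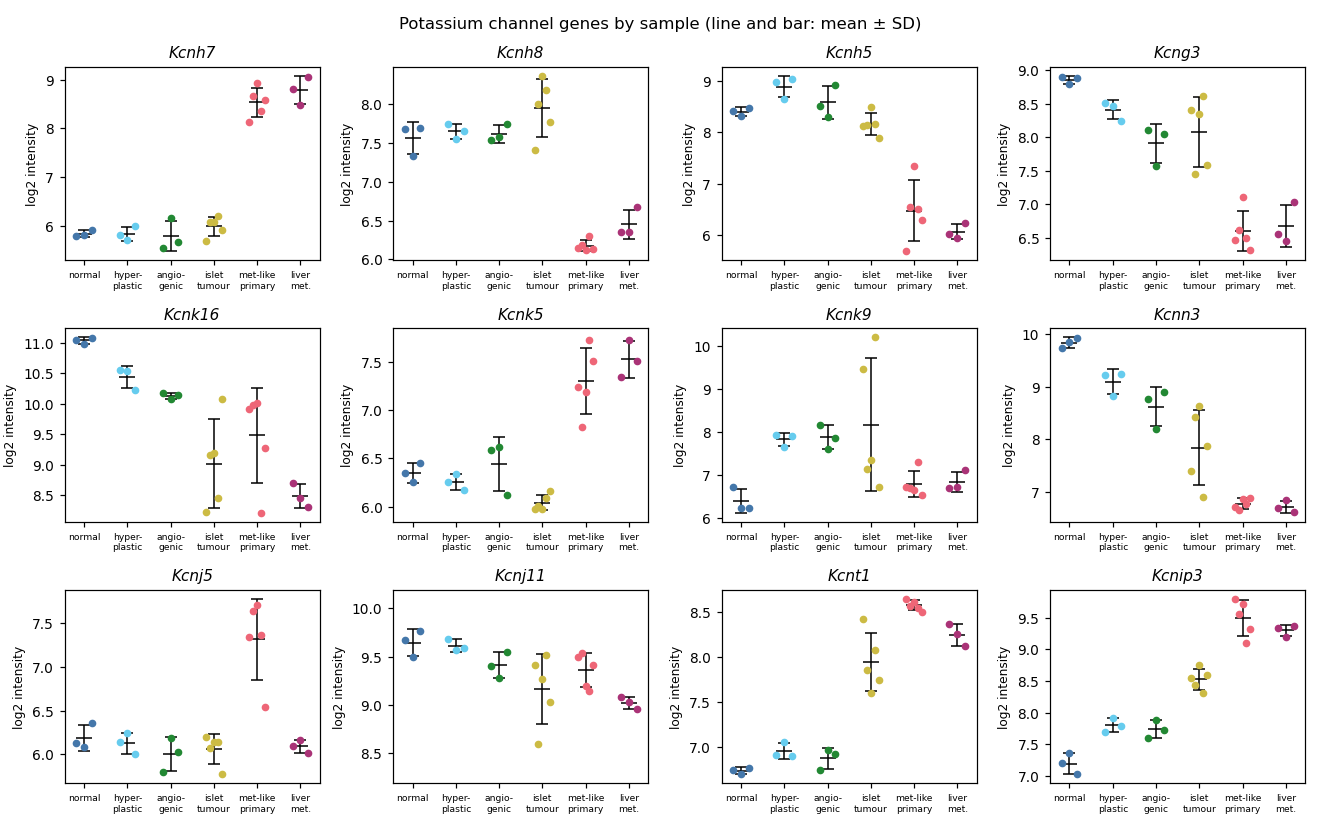
Log2 intensity of potassium channel genes in every sample, by tissue label; points are samples and lines with bars are group means ± SD. Kcnh7 and Kcnk5 are high, and Kcnh8, Kcnh5 and Kcnn3 low, in metastasis-like primaries and metastases, and the islet tumours spread widely for Kcnk9 and Kcnk16.

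Samples of a group differed from each other for some genes by more than the groups did. Islet tumours 1 and 4, which had the highest Kcnk9, also had the highest Kcnc2 (8.22 and 8.90, against 7.81, 6.75 and 5.96), the gene of the fast Kv3.2 pore. The same tumours had the lowest Scn3a, Kcnn3 and Kcnk16 of the islet tumours, as listed above, and the highest Kcnip4 (8.55 and 8.77, against 7.34, 7.86 and 7.73). They carry different title prefixes, I and III. Kcnc2 differed by -1.50 ± 0.34 between metastasis-like primaries, at 5.80 to 6.22, and islet tumours (limma adjusted p = 0.00206), with islet tumour 5 inside the range of the metastasis-like primaries. Among metastasis-like primaries, numbers 2 and 3, both of prefix II, were set apart by Scn1a, the Nav1.1 pore of interneurons, at 7.88 and 7.58 where the other 3 measured 4.90, 5.0 and 5.49 and all other samples 4.68 to 5.68. Scn1a passed in no comparison and was picked out after its values were seen. The same primaries had the highest Scn7a, Scn9a and Kcnq3 of their group. Within a title prefix, 52 of the 54 genes called between metastasis-like primaries and islet tumours differed in the same direction in all 3 prefixes, the exceptions being Kcnh2 and Kcnmb4. The 54 were called on these same arrays, so such agreement is favoured by the selection and is no replication.

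**Figure D5:**
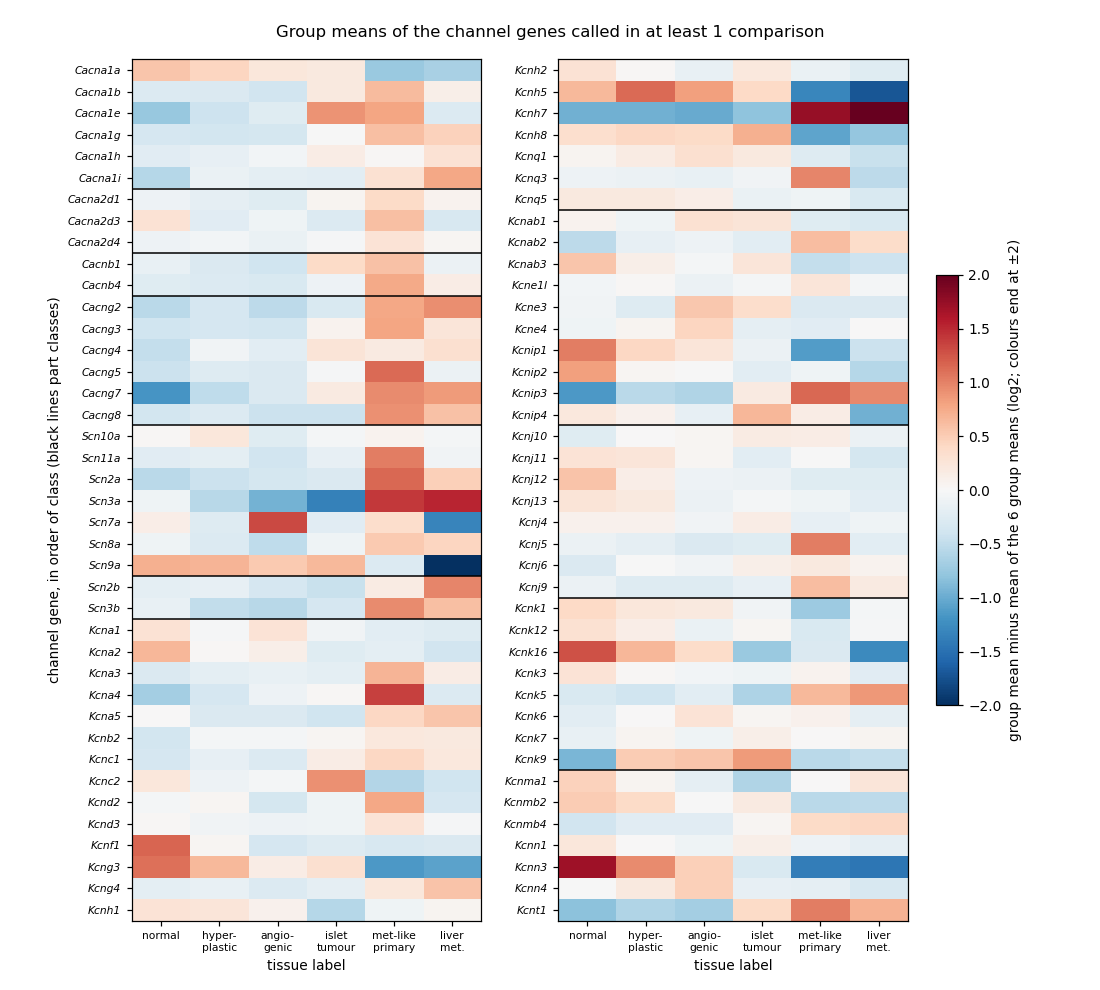
Group means of the 80 channel genes called in at least 1 comparison, each drawn as its difference from the mean of the 6 group means on the log2 scale (colour; red higher, blue lower; colours end at ±2), with genes in rows by class and tissue labels in columns. Scn3a, Kcnh7, Cacng7 and Kcnip3 are red, and Kcnn3, Kcng3 and Kcnh5 blue, in metastasis-like primaries and liver metastases, whereas Cacng5, Scn11a, Kcnj5, Kcna4 and Kcnq3 are red in metastasis-like primaries and near white or blue in liver metastases.

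Several of these genes lie side by side in the genome. In the RefSeq annotation, where 123 of the 126 members were found, Scn3a and Scn2a adjoin on chromosome 2, as do Scn1a, Scn9a and Scn7a, with 3 coding genes between the pairs, and Kcnh7 lies 4 coding genes from Scn3a. Within this stretch Kcnh7, Scn3a and Scn2a were higher in metastasis-like primaries than in islet tumours and Scn9a was lower. Kcnj5 and its neighbour Kcnj1 on chromosome 9 differed in that Kcnj1 passed in no comparison. Cacng1, Cacng4 and Cacng5 adjoin on chromosome 11, and of these Cacng5 alone was called between the primary tumour types.

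The promoters of 96 members, with 131 annotated starts, were in the RefSeq table (GRCm38.p6) and were searched over the 250 bases before the start, on both strands, next to all 32851 starts of the table. The patterns were settled on after other patterns had been looked at. A GC box (GGGCGG) lay in 42.7% of member promoters and 32.7% of all promoters, and the E-box CAGCTG in 25.2% against 13.0%. The TATA box TATAAA lay in 3.82% against 12.4%, the CCAAT box CCAAT in 28.2% against 33.9% and the cAMP response element TGACGTCA in 0% against 1.55%. Their median content of G and C was 58.0%, against 52.4% for all promoters. Promoters of members higher in metastasis-like primaries than in islet tumours held a GC box in 44.7% and the E-box in 26.3%, and those of members lower there in 45.8% and 29.2%, which are close to each other. A match is only a description of these letters and does not show a bound site.

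Of 12 measured partners, which include the sulfonylurea receptors, HCN pacemaker channels, DPP subunits of Kv4 and the fibroblast growth factor homologues that bind sodium channels, 2 were higher and 1 lower in metastasis-like primaries than in islet tumours, a share near that of all genes (12.3% higher and 14.2% lower). Fgf14, which fixes sodium channels to the start of the axon, rose by 1.25 to a mean of 9.31 ± 0.40 (SD, n = 5; limma adjusted p = 3.68e-06), and metastases differed from these primaries by -0.87 (adjusted p = 0.00266). The sodium leak channel Nalcn rose by 0.62 (adjusted p = 0.000564). Abcc8, the partner of Kcnj11, passed in none of the 6 comparisons, with means of 11.97 ± 0.18 in normal islets (n = 3) and 11.36 ± 0.74 in islet tumours (n = 5).

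Of 14 measured genes for glucose uptake, depolarising channels and exocytosis, 5 were higher and 5 lower in metastasis-like primaries than in islet tumours (12.3% and 14.2% of all genes). The glucose transporter Slc2a2, which is also on the beta cell marker list, differed by -2.01 (limma adjusted p = 1.48e-05) after -3.04 between normal islets and islet tumours (adjusted p = 4.35e-07), and was 1.31 higher in metastases than in metastasis-like primaries (adjusted p = 0.00953). Trpm5, a calcium-activated cation channel that adds to depolarisation, differed by -0.95 (adjusted p = 0.000165). Genes of the release machinery went both ways, with Snap25 higher by 0.69 (adjusted p = 6.29e-06) and Cplx1 by 0.64 (adjusted p = 0.000514), and Cplx2 lower with -0.54 (adjusted p = 0.00422).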

How the data were processed

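Affymetrix arrays of 22 samples were used, 1 per sample. The authors deposited normalized values whose range is that of log2 intensities. The series text names aroma.affymetrix, per the labels; its version, background correction and summarization are not given in the labels and headers read here. Of 35511 probe sets, 21789 had 1 gene symbol, which left 19938 genes after the probe set with the highest mean was kept for each; 3 probe sets with several symbols that include a channel gene were left out.

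A single limma fit (3.58.1, R 4.3.3) over the 22 arrays gave each tissue label its own mean, and dim genes were kept. A gene was dim where its mean over all arrays lay below 6.20, the 25th percentile of all genes. Of the 126 members 20 were dim, among them Scn1a, Scn10a, Scn11a, Cacna2d3 and Cacnb4. Comparisons used limma's moderated test (two-sided), Benjamini-Hochberg adjustment over all genes, and a gene was called where the adjusted p was under 0.05. Errors of differences are standard errors and those of levels SDs. The fit was tested on simulated data. Arrays carry no read depth, and their number limits the precision.

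Named genes were, in each comparison, the 6 largest rises and 6 largest falls among called members, the smallest adjusted p of each class, the highest mean of each class and a fixed list of islet channels. Not every result of these genes is described above. Left out were, among others, the calls of Cacna2d1 (higher) and Kcnq1 (lower) in metastasis-like primaries against islet tumours. Those of Kcnj6 (higher) and Kcnk3 (lower) in islet tumours against normal islets were left out too. Genes outside this rule, such as Scn1a, Cacng2, Cacng3, Cacna1g, Cacna1h, Cacna1i, Kcnmb4 and Kcnj1, were chosen after their values were seen. Members, marker lists and partner lists were chosen with earlier results of these data known. Arrays of normal, hyperplastic and angiogenic islets share codes in their titles. Those with the same code deviated together from their group means, with correlations of 0.197 to 0.448 between normal and hyperplastic and 0.353 to 0.479 between hyperplastic and angiogenic islets. A fit with the code as a block, and other settings, were alternatives.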

Additional observations from a re-analysis of the deposited data

Results flagged for a closer look

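In groups of 5 samples, 1 sample stood apart from the other 4 by Dixon's limit in 9 of 114 tests over the named genes, and chance gives about 1 in 20. Metastasis-like primary 5 was lowest for Cacna1d at 9.504, with the others at 9.738 to 9.831, and highest for Kcnab3 at 7.032, with the others at 6.520 to 6.667. Metastasis-like primary 1 was lowest for Cacng4 at 8.459, with the others at 8.725 to 8.829. Metastasis-like primary 2 was highest for Kcna1 at 6.275 (others 6.055 to 6.116) and lowest for Kcnd3os at 7.35 (others 7.566 to 7.641). Metastasis-like primary 4 was highest for Kcnk9 at 7.301, with the others at 6.524 to 6.714, and metastasis-like primary 3 for Kcnq1 at 7.349, with the others at 7.148 to 7.205. Among islet tumours, number 1 was highest for Kcnn4 at 7.082 (others 6.733 to 6.832) and number 3 for Scn8a at 8.282 (others 8.028 to 8.099).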

How the results depend on the processing

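Of 2968 results recomputed for single named genes, 2743 kept their direction and side of the threshold, 178 lost a call, 44 gained one and 3 reversed. The 3 were Kcnma1 with the mean of all probe sets, at 0.0435 for islet tumours against angiogenic islets, 0.0317 against normal islets and -0.39 for metastasis-like primaries against islet tumours, where its probe sets disagree. In the order normal to hyperplastic, hyperplastic to angiogenic, angiogenic to tumour, tumour to metastasis-like primary, metastasis-like primary to metastasis and normal to tumour, a minimum change of 1 log2 left 1, 0, 4, 19, 10 and 12 calls. Leaving out 1 array gave 4 to 8, 0 to 6, 5 to 17, 49 to 53, 14 to 33 and 25 to 34. With only the compared arrays there were 17 calls between hyperplastic and normal islets and 6 between islet tumours and angiogenic islets. Array weights gave 4 between angiogenic and hyperplastic islets and 43 between metastases and metastasis-like primaries. Without dim genes the former were 1, because Scn10a is a dim gene and was left out of that fit. The causes of the other changes were not tested. With the title code as a replicate block (I-93 of the islets read as I), the counts were 9, 2, 15, 54, 21 and 17. Of these, 8, 2, 6, 51, 16 and 17 were also called without the block. Of the named results 17 lost their call under the block. They were Kcnab3 between hyperplastic and normal islets (adjusted p = 0.0572), Cacnb1 and Kcnk1 between metastases and metastasis-like primaries, Cacnb1, Cacng4, Kcna1, Kcna2, Kcne4, Kcnk16, Kcnma1 and Scn7a between islet tumours and angiogenic islets, and Cacna2d3, Kcnip1, Kcnj11, Kcnj6, Kcnk3 and Kcnk9 between islet tumours and normal islets. Codes paired normal with hyperplastic and hyperplastic with angiogenic islets, and did not pair islet tumours with metastasis-like primaries (correlations -0.087 to 0.206). Groups of 3 to 5 arrays limit the precision.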
